A study of Rattus norvegicus with 2 samples.

Results

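Wnt signalling genes were examined in rat prostate cancer cells that did or did not receive an Ndrg-1 insert. The members are 38 named genes of the Wnt and beta-catenin pathway, taken where a probe set was annotated to exactly 1 gene and that gene was on the list. Of the 38, 33 had such a probe set, among 14217 genes on the array. Wnt7b, Wnt10b, Fzd7, Rnf43 and Dkk1 had none in the annotation used here and were not analysed. Each gene was read from the one of its probe sets whose mean log2 signal was highest, and its further probe sets served as a check.

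The cells were AT6.1, an established line of rat prostate cancer cells. Each group was 1 clone and 1 array with no replicate. The clone of the Ndrg-1 group (number 7 in the submitters' design text) carried the expression vector pcDNA3 with N-myc downstream regulated gene-1, and that of the vector group (number 9) carried pcDNA3 with no inserted gene. Culture was the same for both, in RPMI medium with 10% FCS (fetal calf serum) and the selection drug G418 at 0.3 mg/mL. Clone, culture and array coincide with the group, so what each of them contributes to a difference cannot be told apart from the effect of the insert, and no p-value can be given. Which promoter drives the insert, the species it came from and which part of the gene it holds were not stated in the sources used here.

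In the canonical pathway, a secreted Wnt ligand binds a Frizzled receptor and an LRP5 or LRP6 co-receptor at the cell surface, and Dishevelled relays the signal. Without a ligand, a destruction complex of APC, Axin and the kinases CK1 and GSK3 marks beta-catenin for degradation. With a ligand, beta-catenin builds up, enters the nucleus and joins TCF/LEF factors on target genes, several of which encode feedback inhibitors of the pathway itself. The NDRG1 protein has been reported to bind LRP6 and to dampen Wnt signalling in prostate cancer cells, which is the question that the comparison of these genes bears on.

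Some facts of the arrays touch every ratio below. Deposited values were probe set signals on a linear scale with the same trimmed mean (150.0) on both arrays. Ndrg1 itself had signals of 1353 on the Ndrg-1 array and 1062 on the vector array by its brighter probe set (log2 ratio 0.34) and of 154 and 181 by the dimmer one (-0.24), so neither reached 2-fold and the label of the Ndrg-1 array is not borne out by these probe sets. Whether these rat probe sets read the inserted copy is unknown, since its species and extent are. "Ndrg-1 array" below means the array so labelled, and every direction rests on that label. Of 14 prostate epithelial markers on the array 2 were above background on at least 1 array, while others such as Cdh1, Epcam, Krt18 and Pbsn were not. The 2 were Krt8 (38.7 on the Ndrg-1 array and 46.2 on the vector array) and Tmprss2 (35.4 and 18.7). Of 13 mesenchymal markers 11 were above it, of 9 macrophage and leukocyte markers 3, and of 6 endothelial markers 0. The share over all genes on the array was 64.6%. The 3' to 5' signal ratios were 1.21 and 1.24 for Actb and 1.05 and 1.03 for Gapdh, on the Ndrg-1 and the vector array.

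Background was set at the median of all signals, 31.0, called the floor here. Its place can be judged from the bioB hybridisation spikes, the lowest of which had a signal of 28.8. A gene above the floor on 1 array only has a bound in place of a ratio, and a gene under it on both has no ratio. Lower signal from fewer expressing cells and from less RNA per cell cannot be told apart in such bulk RNA.

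By this floor beta-catenin and its destruction complex were above background on at least 1 array, and the ligands and secreted inhibitors on the list were not. Of the 33 members, 16 were above the floor on at least 1 array and 12 on both. That is 48.5% of the members, against 64.6% of all genes on the array. All 6 genes of beta-catenin and its destruction complex were above the floor on at least 1 array, as were 4 of 7 receptors and co-receptors and 1 of 3 TCF/LEF factors. Among the ligands the count was 0 of 4 and among the secreted inhibitors 0 of 7. This contrast depends on the floor. With it at the 25th percentile, Wnt2 and all the secreted inhibitors on the array except Dkk2 were above it on at least 1 array. With it at the 75th percentile, Gsk3b and Axin2 were under it on both.

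**Figure D1:**
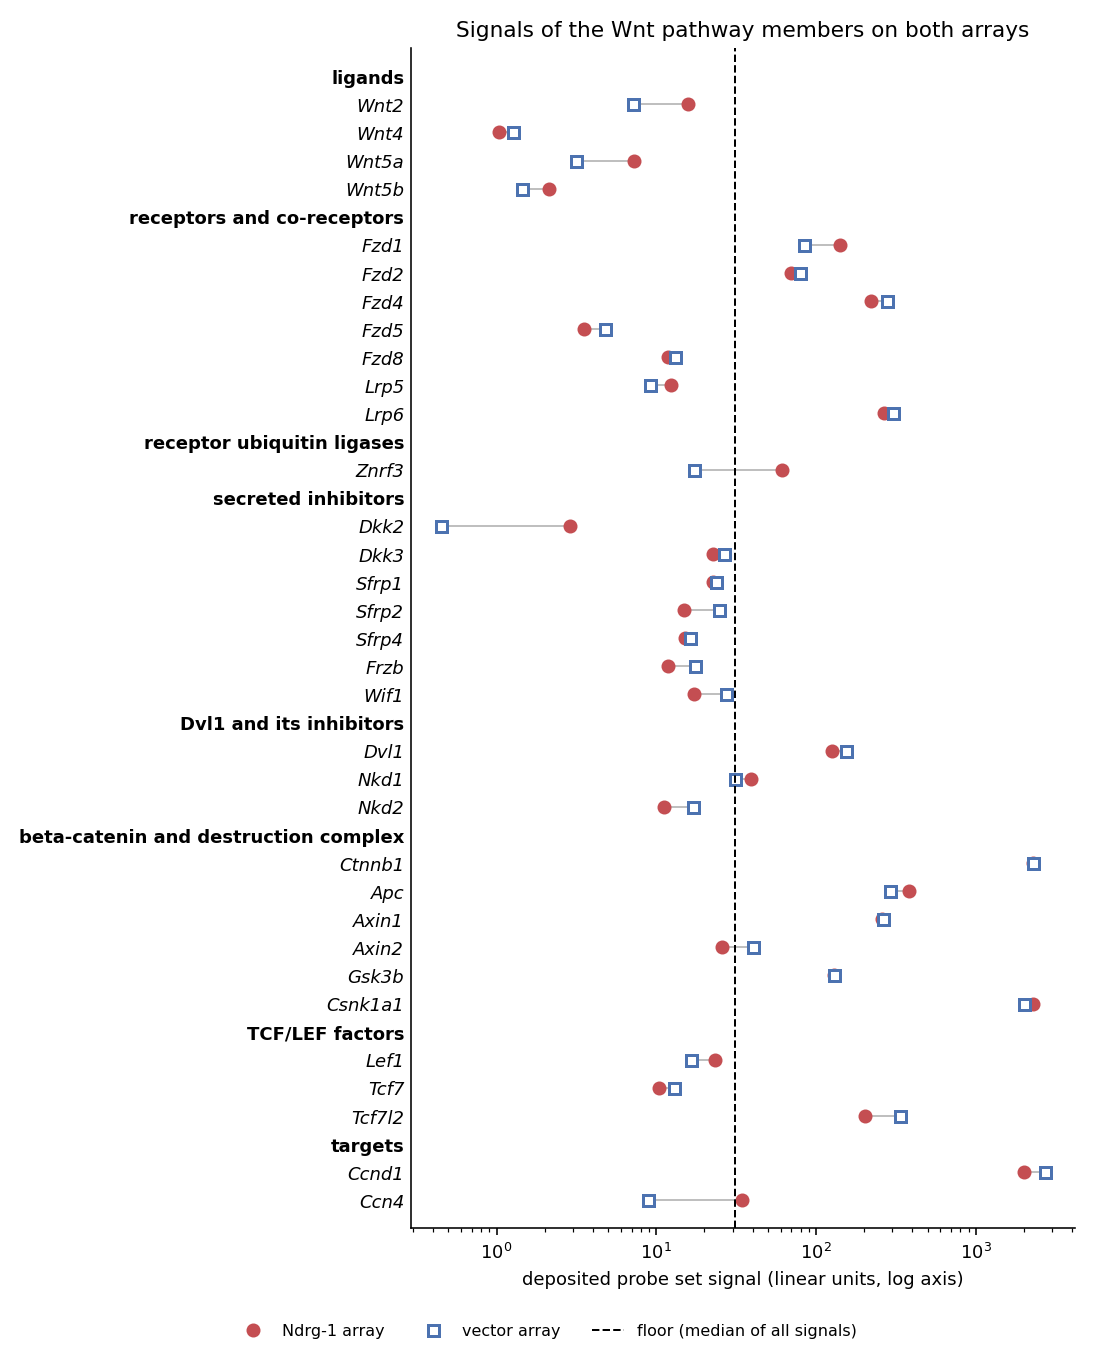
Deposited probe set signal (linear units on a log axis) of the 33 members on the Ndrg-1 array (filled circles) and the vector array (open squares), 1 array each, grouped by role. The dashed line is the floor of 31.0, and the ligands and secreted inhibitors all lie to its left on both arrays, between 0.452 and 27.1.

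**Figure D2:**
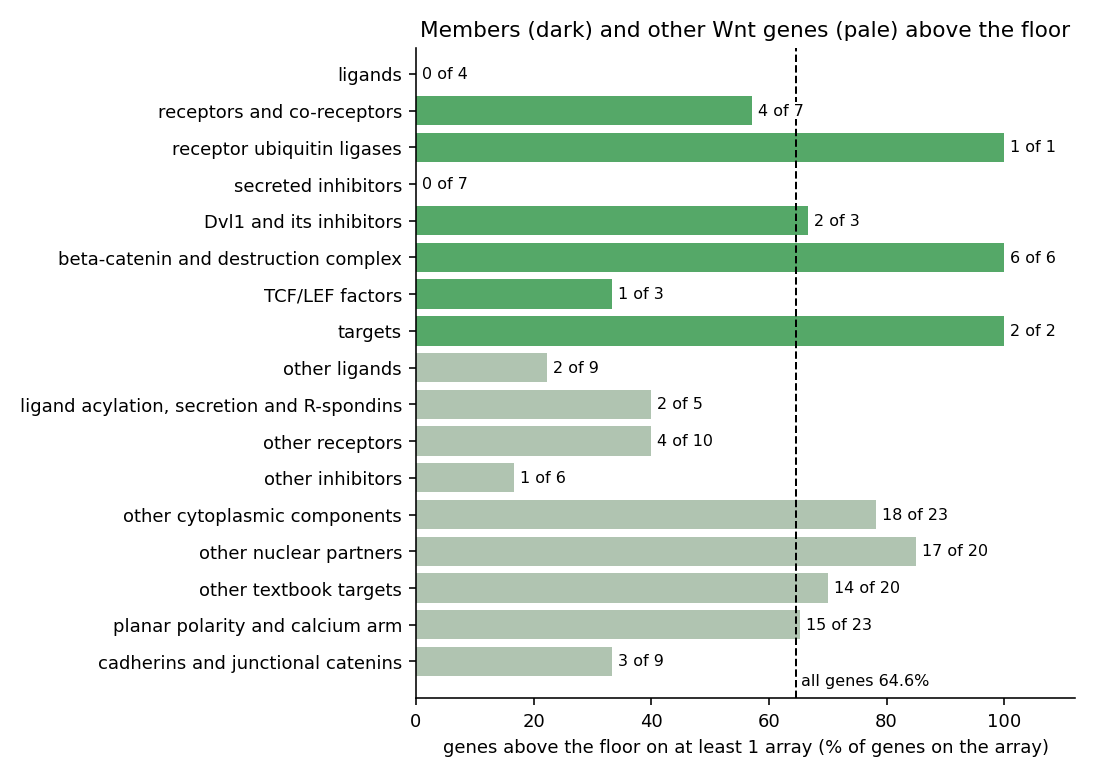
Share of genes above the floor on at least 1 array, in percent of the genes of each role that are on the array, for the members (dark bars) and the other Wnt pathway genes (pale bars), with the counts beside the bars. The dashed line is the share over all genes on the array, 64.6%, and the members' dark bars for ligands and for secreted inhibitors stand at 0.

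None of the 16 measured members reached a 2-fold difference between the arrays, where 3.13% of the 9182 measured genes did. For Znrf3, Nkd1, Axin2 and Ccn4 the brighter signal was 1.97, 1.26, 1.31 and 1.10 times the floor. Their bounds therefore could not reach 2-fold, whatever the difference in RNA, and the count does not show that these 4 were unchanged. The median log2 ratio of the 16 members, Ndrg-1 array over vector array, was -0.02, with 8 members above 0 and 8 below. The median over all measured genes was 0.0029. At a fold of 1.5, a count added after the values were seen, 3 of the 16 passed (18.8%, against 10.7% of all measured genes). They were Znrf3 and Fzd1 with higher signal on the Ndrg-1 array (a direction shared by 5.54% of measured genes at that fold) and Tcf7l2 with lower signal (5.18%). With the floor lowered to the 25th percentile of signals, 28 members were measured and 3 of them (Wnt2, Znrf3 and Ccn4) reached 2-fold, where 7.39% of all genes so measured did. With 16 genes, these shares are a description of 2 arrays and nothing is read from their difference.

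The table holds 1 kind of error, namely how far probe sets of 1 gene disagree, which had an SD of 0.23 on the log2 ratio over 2296 genes. It leaves out variation between clones, cultures and arrays. Of the 12 members above the floor on both arrays, 10 (83.3%) had a ratio within 2 SD (0.46), and so did 84.7% of all such genes. The SD was 0.28 for genes with a mean signal over their probe sets up to 134, 0.22 from there to 270.1, and 0.18 above 270.2.

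Scaling moves all ratios together. On the Ndrg-1 array all 18 probe sets for hybridisation spikes read lower (median log2 ratio -0.54), whereas 23 of 24 for poly-A spikes read higher (0.22). Scaled to the hybridisation spikes, the median gene stood at 0.53 and 732 genes were 2-fold higher and 43 lower, against 149 and 138 in the main setting. Scaled to the poly-A spikes, the median gene stood at -0.21 and the counts were 101 and 240. Ratios here are relative to the median gene among those brighter than the overall median. Under at least 1 of the 10 alternative settings 9 of the 16 members changed sign, and Fzd1, Znrf3, Apc, Nkd1, Axin2, Tcf7l2 and Ccn4 did not. Relative to the median gene of each setting, Fzd2, Fzd4, Lrp6, Axin1 and Ccnd1 also kept their sign. With the hybridisation spikes Ccn4 had a bound of -0.12 or more relative to the median gene, which leaves its sign there unsettled. In the main setting Znrf3, Nkd1, Axin2 and Ccn4 have bounds, whose sign is fixed by which array is under the floor.

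**Figure D3:**
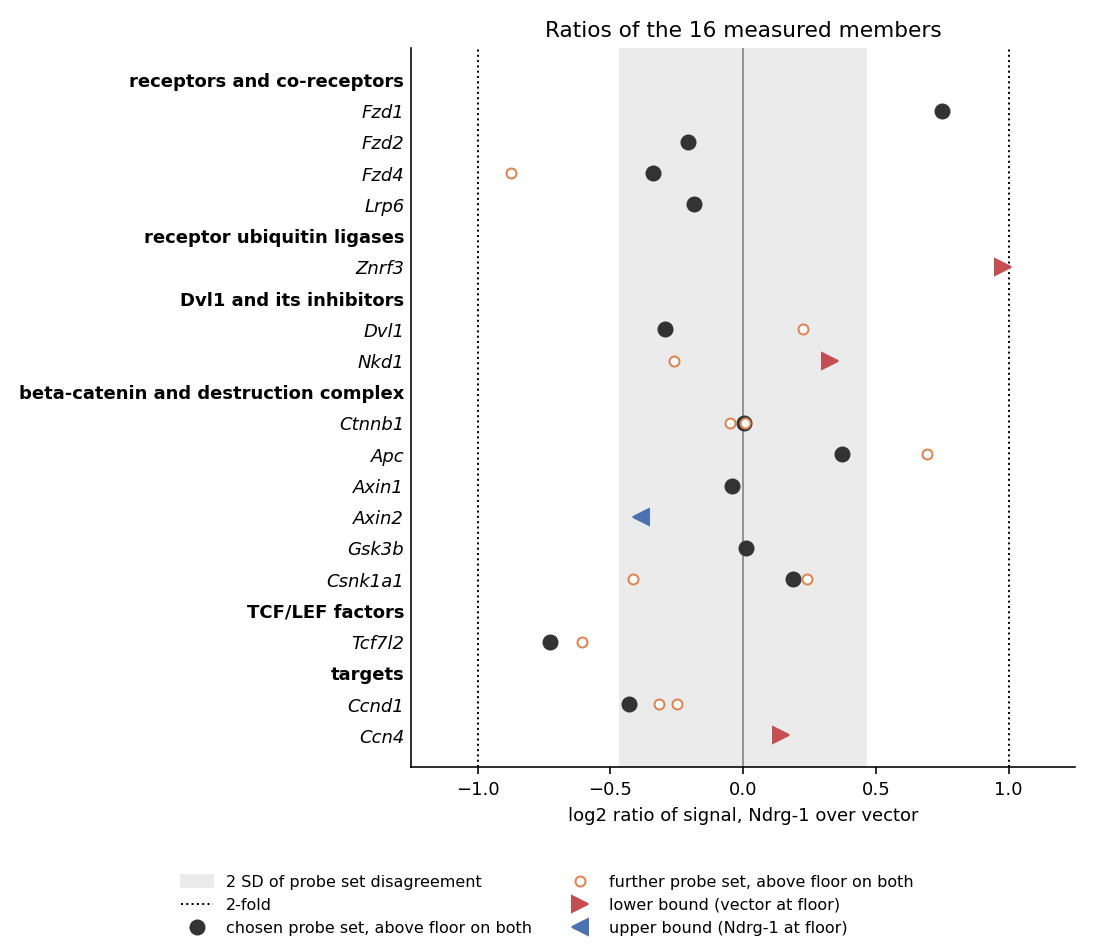
Log2 ratio of signal, Ndrg-1 array over vector array, for the 16 measured members by role, 1 array each. Filled circles are the chosen probe sets, open circles further probe sets above the floor on both arrays, triangles bounds for genes at the floor on 1 array, the grey band 2 SD (0.46) of the disagreement between probe sets and the dotted lines 2-fold. Fzd1 at 0.75 and Tcf7l2 at -0.73 lie outside the band on opposite sides, and no chosen probe set reaches a dotted line.

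The ligands on the list were under the floor on both arrays. Wnt2 had signals of 15.7 on the Ndrg-1 array and 7.13 on the vector array. Wnt5a, a ligand best known for signalling outside the beta-catenin route, had 7.30 and 3.14. Wnt4 and Wnt5b lay between 1.04 and 2.12. Signals this low have no usable order, so no ratio is given. Of 9 further Wnt ligands on the array, 2 were above the floor (22.2%, against 64.6% of all genes). Wnt1 had signals of 54.3 and 41.1 (log2 ratio 0.40), and Wnt2b had 51.7 and 49.4 (0.06).

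Ligand processing genes were measurable. Porcn, the acyltransferase that attaches the lipid that Wnt proteins need for secretion, had a signal of 127 on the Ndrg-1 array and 230 on the vector array. Its ratio was 1.82-fold lower on the Ndrg-1 array (log2 -0.86), and its second probe set, at 50.8 and 87.3, gave -0.79. Both probe sets thus lay below 0 by more than 2 SD, and neither reached 2-fold. Wls, the carrier that brings Wnt proteins to the surface, had signals of 471 and 497 (-0.08). Among the R-spondins, which strengthen Wnt responses, Rspo1 and Rspo3 were under the floor on both arrays.

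Among the Frizzled receptors, Fzd1, Fzd2 and Fzd4 were above the floor on both arrays, and Fzd5 and Fzd8 were not. Fzd1 had a signal of 141 on the Ndrg-1 array and 83.5 on the vector array, 1.68-fold higher (log2 ratio 0.75). That ratio exceeded 2 SD for genes of its brightness (0.56), and 3.27% of measured genes had one as high or higher. Its 1 probe set leaves no second reading on this array.

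Fzd4, a receptor that also binds Norrin, had 221 and 279 (log2 ratio -0.34), a difference within 2 SD. Its second probe set, just above the floor on the Ndrg-1 array at 32.3 and at 59.0 on the vector array, stood at -0.87. That is beyond 2 SD for genes of this mean brightness (0.56), and the median over the probe sets of Fzd4 was -0.61. Fzd2 had 69.1 and 79.6 (-0.21). Scaled to the hybridisation spikes, Fzd2 and Fzd4 turned to 0.34 and 0.20, below the median gene of that setting. Fzd5 and Fzd8 had signals from 3.51 to 13.0.

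The co-receptor Lrp6, which is phosphorylated when Wnt binds and then recruits Axin, had a signal of 267 on the Ndrg-1 array and 303 on the vector array. The log2 ratio of -0.19 was within 2 SD for genes of its brightness (0.36). With scaling to the hybridisation spikes the ratio of Lrp6 turned to 0.36, still below the median gene of that setting. Its relative Lrp5 was under the floor, at 12.4 and 9.12. Of the co-receptors, Lrp6 was therefore the one with a signal above the floor. Among receptors outside the list, Ryk, a receptor-like pseudokinase that binds Wnt, was the higher of the 2 with a ratio (667 and 554, log2 0.26), and the membrane protein Tmem9 the lower (348 and 319, 0.12). Lgr6, an R-spondin receptor, and Ptk7, a pseudokinase receptor of the planar polarity arm, were under the floor on the Ndrg-1 array and have bounds that cannot be ranked. Lgr6 had 22.4 and 34.1 (-0.14 or lower), and Ptk7 had 12.3 and 32.9 (-0.09 or lower), which passed 2-fold with the floor at the 25th percentile.

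Znrf3 encodes a membrane ubiquitin ligase that removes Frizzled receptors from the cell surface and is itself a target of beta-catenin, so that it works as a feedback brake. Its signal was 61.1 on the Ndrg-1 array, 1.97 times the floor, and 17.2 on the vector array, under the floor. The ratio was at least 1.97-fold higher on the Ndrg-1 array, just short of the 2-fold count. With the floor at the 25th percentile (7.66) both arrays were above it and the log2 ratio was 1.83, or 3.55-fold. The gene rests on 1 probe set, and whether a signal of 17.2 differs from background cannot be told from these values.

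The 7 secreted inhibitors on the array had signals under the floor on both arrays. Dkk2, a Dickkopf gene whose product binds LRP co-receptors, had signals of 2.88 and 0.452. Dkk3, the divergent member of that family, had 22.6 and 26.5. Of the genes for secreted Frizzled-related proteins, which bind Wnt ligands, Sfrp1 had 22.5 and 23.8, Sfrp2 had 14.9 and 24.8, and Sfrp4 had 15.1 and 16.2. Frzb, of the same family, had 11.8 and 17.5. Wif1, which binds Wnt proteins through its own domain, had 17.1 and 27.1. The further probe sets of Dkk3, Sfrp1, Sfrp2, Sfrp4 and Frzb were under the floor as well.

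Of 6 other inhibitor genes on the array, 1 was above the floor (16.7%, against 64.6% of all genes). Draxin, a secreted antagonist known from axon guidance, had signals of 129 and 241, 1.88-fold lower on the Ndrg-1 array (log2 ratio -0.91, 1 probe set). Both Porcn and Draxin reached 2-fold only with scaling to the poly-A spikes, among the settings tried.

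Dvl1, the Dishevelled relay protein, had a signal of 125 on the Ndrg-1 array and 153 on the vector array (log2 ratio -0.29). Its second measured probe set went the other way, at 145 and 123 (0.22), and the median over its probe sets was 0.02, so the gene has no settled direction. Dvl2 and Dvl3 were under the floor. Nkd1 and Nkd2 encode Naked cuticle proteins, which bind Dishevelled and dampen the signal. Nkd2 was under the floor at 11.2 and 16.9.

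Ctnnb1, the gene for beta-catenin, had almost equal signals on both arrays. The chosen probe set read 2282 on the Ndrg-1 array and 2270.2 on the vector array (log2 ratio 0.0027). Further probe sets read 2087 and 2150.3 (-0.05) and 429 and 425 (0.0079). All 3 readings differed by less than 1 SD, and the fourth probe set was under the floor. Quantile normalization, which bends bright genes upward here, gave 0.15, and scaling to the poly-A spikes gave -0.21, where the median gene also stood at -0.21. The array measures mRNA, and the level and location of beta-catenin protein were not measured.

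Gsk3b and Axin1, of the destruction complex, also lay close to 0. Gsk3b, one of the kinases that mark beta-catenin, had 130.0 and 129 (log2 ratio 0.0093). Axin1, the scaffold of the complex, had 257 and 264 (-0.04). Both differed by less than 1 SD.

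Csnk1a1, the kinase CK1 alpha that places the priming phosphate on beta-catenin, had 2291 and 2003 (log2 ratio 0.19). Its further measured probe sets gave 0.24 and, for a dimmer one at 71.0 and 94.3, -0.41. This gap of 0.60 between the dimmer and the chosen probe set was the widest among the members.

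Apc, the tumour suppressor that helps the complex hold beta-catenin, had 379 on the Ndrg-1 array and 291 on the vector array, a log2 ratio of 0.37. A second probe set, at 111 and 68.3, gave 0.69, and the remaining one was under the floor. Both measured probe sets were above 0 in the same direction. The chosen one lay within 2 SD for genes of its mean brightness (0.45), and the second lay beyond it. A ratio as high as that of the chosen one, or higher, was found in 12.1% of measured genes. Elsewhere in the degradation machinery, the ubiquitin ligase subunits Btrc and Fbxw11, which recognise phosphorylated beta-catenin, had ratios of 0.23 and 0.0050.

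Axin2 and Nkd1 are feedback inhibitors that beta-catenin and TCF/LEF factors switch on, and both sat at the edge of background. Axin2 had a signal of 25.7 on the Ndrg-1 array, under the floor, and 40.4 on the vector array, a log2 ratio of -0.39 or lower. Nkd1 had 39.0 on the Ndrg-1 array and 30.9, just under the floor, on the vector array (0.33 or more), but a second probe set read 31.4 and 37.4 (-0.26). Axin2 thus had its higher signal on the vector array, and Nkd1 has no settled direction.

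Their promoters are shown because these are the measured members in which the TCF/LEF letters were found close to the gene start. RefSeq promoter sequences (build GRCr8) were matched for 24 of the 38 members, and the 250 bases before each start were searched for CTTTGAT and CTTTGAA on both strands. These letters were present in 3 of the 24 (12.5%), in Axin2, Nkd1 and Dkk1, and in 7.58% of all 33469 promoters in the table. The same 3 were among the 6 textbook beta-catenin targets with a promoter. Of 122 promoters of other Wnt pathway genes, 7 held the letters (5.74%). Axin2 held both forms, starting 232 and 132 bases before the gene start, and Nkd1 held CTTTGAT, starting 141 bases before it. Capitals mark the matches, and each sequence runs 5′ to 3′ on the gene's own strand. The Axin2 window is chr10:94398535-94398784 on the plus strand, and the Nkd1 window is chr19:34722847-34723096 on the minus strand.
Axin2: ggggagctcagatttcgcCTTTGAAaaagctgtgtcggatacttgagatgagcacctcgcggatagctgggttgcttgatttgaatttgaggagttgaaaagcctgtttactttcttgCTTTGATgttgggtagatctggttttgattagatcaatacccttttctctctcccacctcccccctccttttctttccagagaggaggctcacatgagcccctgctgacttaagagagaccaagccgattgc
Nkd1: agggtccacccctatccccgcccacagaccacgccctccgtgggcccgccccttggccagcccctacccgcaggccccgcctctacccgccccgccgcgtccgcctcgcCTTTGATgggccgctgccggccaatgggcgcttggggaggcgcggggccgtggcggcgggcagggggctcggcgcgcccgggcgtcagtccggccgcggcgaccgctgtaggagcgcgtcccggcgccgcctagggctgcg
A match is a run of letters and not evidence of binding, and the search says nothing about sites farther from the start.

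Of the TCF/LEF factors, Tcf7l2 was the one above the floor. It encodes TCF4, a main nuclear partner of beta-catenin. Its signal was 202 on the Ndrg-1 array and 333 on the vector array, 1.66-fold lower (log2 ratio -0.73). The second measured probe set, at 44.3 and 67.4, gave -0.61. Both readings were lower on the Ndrg-1 array by more than 2 SD for genes of this mean brightness (0.56), and 3.33% of measured genes had a ratio as low or lower than the first. The sign held in all 9 alternatives that gave a value (from -0.94 to -0.18), and relative to the median gene of each setting the ratio lay between -0.77 and -0.69. The other 3 probe sets of Tcf7l2 were under the floor, at 10.1 to 23.7, and the median over all 5 gives no ratio for that reason. Lef1 (23.2 and 16.4), needed for hair follicle development, and Tcf7 (10.4 and 13.0), best known from T cells, were under the floor on both arrays.

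The remaining members were target genes, Ccnd1 and Ccn4, and they lay on opposite sides of 0. Ccnd1 encodes cyclin D1, which drives entry into S phase and answers to many pathways besides Wnt. It had a signal of 2007 on the Ndrg-1 array and 2697 on the vector array, 1.35-fold lower (log2 ratio -0.43), which turned to 0.11 with scaling to the hybridisation spikes, still below that setting's median gene. Further probe sets gave -0.32 (1187 and 1473) and -0.25 (775 and 918). All 3 probe sets were thus below 0, and the chosen one passed 2 SD for genes above 270.2 (0.36). The ratio of bright genes was shifted as a whole, with a median of -0.14 among genes with a mean signal above 1141, and removing the trend of ratio on signal left -0.25 for Ccnd1.

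Ccn4, formerly Wisp1, encodes a matricellular protein first found as a Wnt-induced secreted protein. Its signal was 34.3 on the Ndrg-1 array, barely above the floor, and 8.81 on the vector array. The ratio was at least 1.10-fold higher, and with the floor at the 25th percentile it was 1.96 on the log2 scale (3.88-fold). As for Znrf3, this size rests on 1 probe set and on a vector signal within background.

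The textbook targets on the list therefore did not share a direction. Counting the feedback genes, 7 of 9 were on the array and 5 were above the floor (71.4% of the 7, against 64.6% of all genes). Of these 5, Znrf3 and Ccn4 were above 0, Axin2 and Ccnd1 below, and Nkd1 differed in sign between its probe sets. For 4 of these 5 the ratio is only a bound. Among 20 further textbook targets on the array 14 were measured (70%, against 64.6% of all genes). Of these 14, 0 reached 2-fold (3.13% of all measured genes did), and 8 lay above 0 and 6 below. Among those above the floor on both arrays, Abcb1a, a drug efflux pump, was highest at 299 and 192 (log2 ratio 0.63), and Vegfa, the endothelial growth factor, lowest at 187 and 231 (-0.31). Bambi, a decoy receptor of the TGF-beta family, had 34.4 and 15.9, a bound of 0.15 or more that passed 2-fold with the floor at the 25th percentile. Myc and Cd44, named after their values were seen, stood at 0.14 and 0.17.

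**Figure D4:**
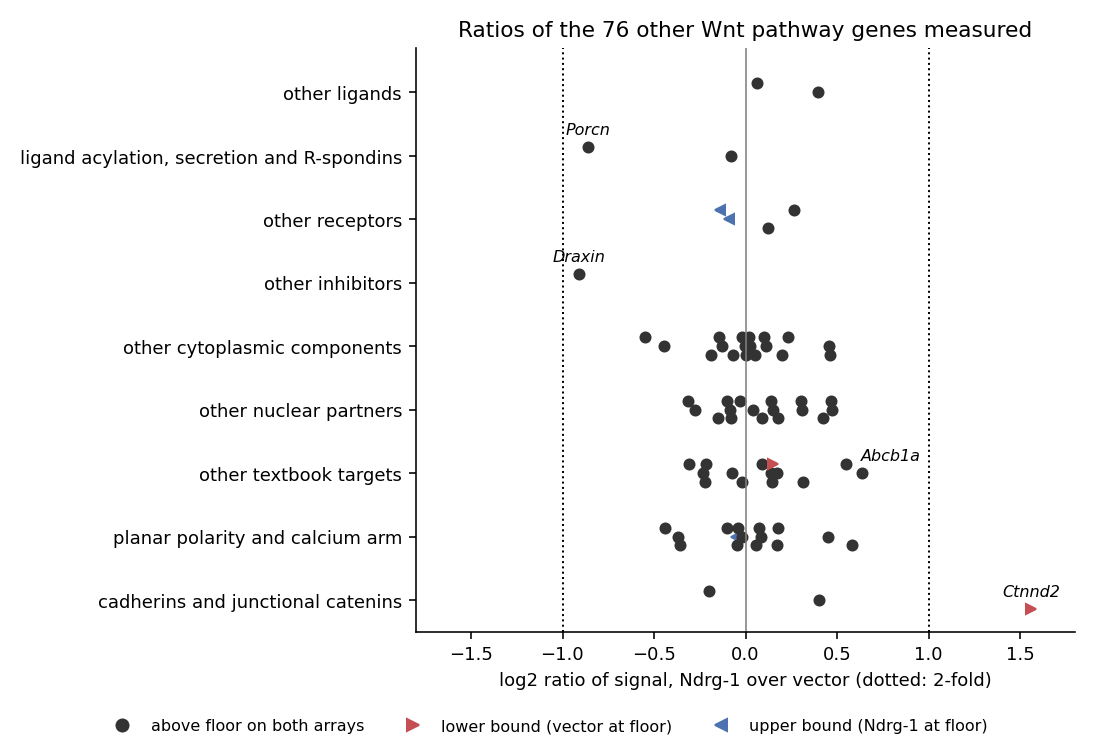
Log2 ratio of signal, Ndrg-1 array over vector array (1 array each), for the 76 measured genes of the pathway outside the members, by group. Circles are genes above the floor on both arrays and triangles bounds, dotted lines mark 2-fold, and genes more than 0.6 from 0 are named. Ctnnd2, at 1.56 or more, is the 1 gene past 2-fold.

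In the wider pathway, 1 of 76 measured genes reached 2-fold, against 3.13% of all measured genes. The median was 0.03. Ctnnd2, which encodes delta-catenin, a relative of p120 catenin that binds cadherins, had a signal of 91.6 on the Ndrg-1 array and 14.2 on the vector array, at least 2.95-fold higher on its 1 probe set. It belongs to the list of cadherins and junctional catenins, which share beta-catenin with the Wnt pathway. In that list Cdh1, Cdh2 and Cdh3 were under the floor on both arrays, and so was Cdh11, at 31.0 (just under the floor) and 8.20. Ctnna1, the alpha-catenin that links beta-catenin to actin, had 2166 and 2483 (-0.20), and Ctnnd1, for p120 catenin itself, was at 0.40.

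Of the other cytoplasmic and nuclear components on the array, 78.3% and 85% were above the floor, against 64.6% of all genes. Their median log2 ratios were 0.01 and 0.09. Of 23 cytoplasmic components 18 were measured, from Dact3, a Dishevelled-binding protein (46.5 and 67.8, log2 ratio -0.55), to Gsk3a, the second GSK3 gene (122 and 88.1, 0.46). Of 20 nuclear partners 17 were measured, from the corepressor subunit Tbl1xr1 (472 and 584, -0.31) to the corepressor Tle3 (59.3 and 42.5, 0.47). Tbl1xr1 has no settled direction, since the median over its 5 probe sets, 4 of them above the floor on both arrays, was 0.59. Neither group had a member at 2-fold, which 3.13% of all measured genes reached.

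Of the planar polarity and calcium arm, which carries Wnt signals that do not use beta-catenin, 15 of 23 genes were measured. That is 65.2%, against 64.6% of all genes, and 0 reached 2-fold (3.13% of all measured genes did). Among the genes of this arm above the floor on both arrays, Prickle1, a planar polarity protein, was highest at 185 and 123 (log2 ratio 0.58). Mapk9, the kinase JNK2, was lowest at 84.4 and 114 (-0.44). The other probe set of Prickle1 was under the floor, and the median over its 2 probe sets was -0.29.

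Further probe sets gave a check on 8 of the 16 measured members. Of 19 such probe sets, 11 were above the floor on both arrays and 8 on neither. The sign was that of the chosen probe set in 7 of the 11, and the median gap was 0.18. The disagreements in sign concerned Dvl1, Nkd1, Ctnnb1 and the dimmest measured probe set of Csnk1a1, while those of Apc, Ccnd1, Fzd4 and Tcf7l2 kept it.

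**Figure D5:**
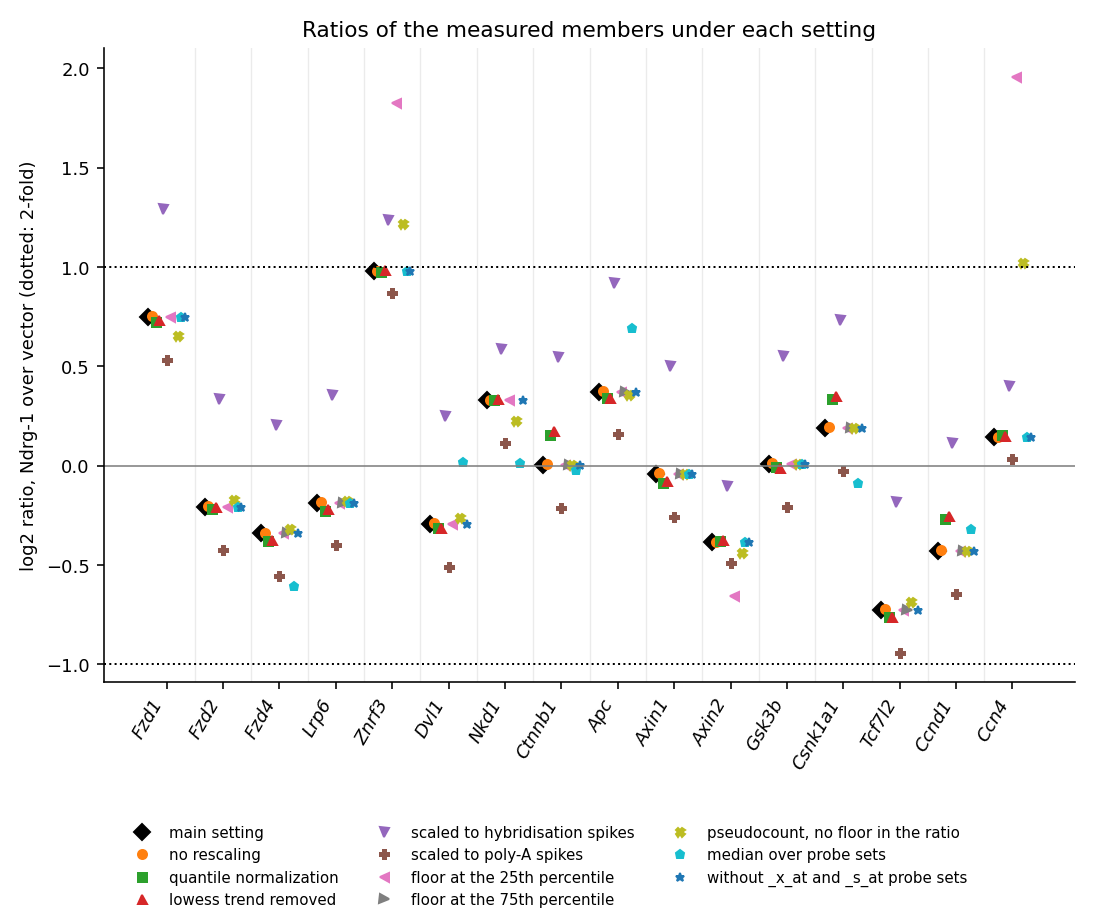
Log2 ratio, Ndrg-1 array over vector array (1 array each), of the 16 measured members under the main setting (black diamonds) and the 10 alternatives (other symbols), with dotted lines at 2-fold. Scaling to the hybridisation spikes lifts the members as it lifts the median gene (to 0.53), Znrf3 and Ccn4 pass 2-fold with the floor at the 25th percentile (1.83 and 1.96), and Tcf7l2 stays below 0 from -0.94 to -0.18.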

How the data were processed

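Expression was measured with Affymetrix arrays on total RNA of 2 clones, 1 array per group. The deposited intensity values (probe set signal, linear) were made by the authors with GCOS 1.3 (source: the submitters' processing notes), while how probe sets were summarised was not given in the sources used here. Of 31042 probe sets besides 57 controls, 20826 carried 1 gene symbol, 436 several and 9780 none, and 20758 matched a RefSeq gene of GRCr8 by gene ID, used for names. The vector array was rescaled (log2 shift 0.0048), signals under the floor (median of all signals) were set to it, and log2 was taken. Fold and log2 ratios came from the deposited signals. Every member was named, and of 149 other listed pathway genes those at 2-fold and the highest and lowest of each group. Members and lists were chosen with earlier results of these data known. Alternatives were a floor at the 25th or at the 75th percentile, 16 added as a pseudocount, quantile normalization, a lowess trend removed, scaling to either spike set or none, the median over probe sets, and no _x_at or _s_at probe sets. A count at 1.5-fold was added later. With 1 array each, their number limits the precision. The steps were tested on simulated data with known changes. These were larger than 2-fold and placed in genes brighter than the median gene, so smaller changes and dimmer genes were not tested. Python 3.11.15, numpy 2.4.6, pandas 2.3.3, scipy 1.17.1 and statsmodels 0.14.6 were used.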

Additional observations from a re-analysis of the deposited data

How the results depend on the processing

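The count of members above the floor was 16, and 28 with the floor at the 25th percentile and 8 with it at the 75th. The count at 2-fold was 0, and 2 with scaling to the hybridisation spikes (Fzd1 and Znrf3), 3 with the lower floor (Wnt2, Znrf3 and Ccn4, where 7.39% of all measured genes passed) and 2 with the pseudocount (Znrf3 and Ccn4). At 1.5-fold it was 3 of 16, where 10.7% of all measured genes passed. It was 5 of 16 with the hybridisation spikes, 9 of 28 with the lower floor and 1 of 8 with the higher floor. With the pseudocount it was 4 of 16, and with the median over probe sets 4 of 15. The share of all genes at 1.5-fold was not computed under these alternatives, so nothing is read from these counts. The members' median was 0.45 with the hybridisation spikes, where that of all genes was 0.53. Other pathway genes at 2-fold numbered 1, and 8 of 77 with the hybridisation spikes (8.34% of all genes passed there), 3 of 76 with the poly-A spikes (3.71%), 11 with the lower floor (7.39%) and 0 of 51 with the higher floor (0.991%). Of 395 ratios of 42 named genes (the measured members, the named genes of the wider pathway and Ndrg1) under alternatives, 331 moved by less than 1 SD of probe set disagreement and 64 by more. Much of this tally follows from the settings and does not measure how stable single genes are. Scaling to spikes shifts all ratios of genes above the floor on both arrays alike, by more than 1 SD for the hybridisation spikes and by less for the poly-A spikes. Leaving out rescaling, or _x_at and _s_at probe sets, left these ratios almost unchanged. Tcf7l2 gave no value as a median over probe sets. No paired analysis was possible because each group had 1 sample. Signal near background limits Znrf3, Ccn4, Axin2 and Nkd1.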
